A study of Mus musculus with 12 samples.

Results

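The genes described here are 32 genes of sterol and fatty acid synthesis in mouse. They were found by symbol in the deposited table of raw read counts, which lists 77175 genes, and all 32 were present. Of these, 22 belong to the sterol branch and 10 to the fatty acid branch. The libraries come from a study of how activated OT-1 CD8+ T cells, which recognise an ovalbumin peptide, act on melanoma in vivo. Bulk messenger RNA was sequenced in 12 libraries, which form 4 groups of 3. The groups are called by the tumor line on their label. OVA T cells and B16-F10 T cells were selected with CD8 beads from B16-F10-OVA and B16-F10 tumors, and both have the donor genotype C57BL/6J-OT-I. OVA tumor cells and B16-F10 tumor cells were sorted by fluorescence (FACS) on GCaMP6s.

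B16-F10 is a mouse melanoma line, and both tumor groups carried the calcium indicator GCaMP6s under the EF1A promoter. B16-F10-OVA carried in addition a vector with ovalbumin under the same promoter. All tumors grew in NOD-SCID mice, which lack T and B cells of their own. Every mouse, in the B16-F10 groups too, received OT-1 CD8+ T cells that had been stimulated on anti-CD3/anti-CD28 beads, and tumors were taken 2 days later. Dissociated cells of all groups were held in medium with serum, insulin and estrogen before selection. The labels give no age and do not tie the libraries of a group to separate mice. A p-value here therefore sets a difference only against the spread of these libraries, and that spread may be technical.

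Sterol synthesis starts from acetyl-CoA, passes through mevalonate to farnesyl diphosphate, and then through squalene and lanosterol to cholesterol. Fatty acid synthesis uses the same acetyl-CoA, which ATP citrate lyase makes in the cytosol. Transcription of both branches is driven by the SREBP factors, SREBP2 (gene Srebf2) mainly for sterol genes and SREBP1 (Srebf1) mainly for fatty acid genes. SCAP escorts the precursors out of the endoplasmic reticulum, and the INSIG proteins hold them back there when sterols are plentiful. Excess sterol is exported and stored through genes of the LXR receptors, which form the opposite arm of the same balance.

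SREBP factors bind sterol response elements, often close to NF-Y sites (CCAAT) and GC boxes. RefSeq promoter windows were found for 25 of the 32 genes, and not for Fads1, Fdft1, Sqle, Scd2, Fdps, Scd1 and Stard4. In the 250 bases before the start, searched on both strands, the element core TCACCCCA stood in 2 of 25, Hmgcs1 and Srebf2. Over all 27025 genes with RefSeq promoter windows, it stood in 1.54%. CCAAT stood in 19 of 25, comprising 16 of 18 sterol branch genes and 3 of 7 fatty acid branch genes, against 37.5% of all genes. GGGCGG stood in 21 of 25, comprising 17 of 18 sterol branch genes and 4 of 7 fatty acid branch genes, against 35.4% of all genes. A match describes these letters only, and no match in this window says nothing of the factor.
The windows of 4 genes are shown, both that hold the core (Hmgcs1 and Srebf2) and, for contrast, a steeply lowered sterol enzyme gene (Lss) and the central fatty acid enzyme gene (Fasn). They are RefSeq sequences of GRCm38.p6, which is not the build of the counts (GRCm39). They run 5′ to 3′ on the gene's strand up to the base before the start, and capitals mark TCACCCCA and CCAAT on either strand.
The Hmgcs1 window, chr13:119690101-119690350, plus strand, has the core starting 137 bases before the start of the gene.
Hmgcs1: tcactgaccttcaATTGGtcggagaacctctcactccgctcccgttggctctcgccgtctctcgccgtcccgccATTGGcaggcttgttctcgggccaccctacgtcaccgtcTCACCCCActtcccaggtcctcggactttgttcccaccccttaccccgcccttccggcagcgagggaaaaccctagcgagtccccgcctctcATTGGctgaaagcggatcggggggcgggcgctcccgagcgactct
The Srebf2 window, chr15:82147019-82147268, plus strand, has it at 162 bases.
Srebf2: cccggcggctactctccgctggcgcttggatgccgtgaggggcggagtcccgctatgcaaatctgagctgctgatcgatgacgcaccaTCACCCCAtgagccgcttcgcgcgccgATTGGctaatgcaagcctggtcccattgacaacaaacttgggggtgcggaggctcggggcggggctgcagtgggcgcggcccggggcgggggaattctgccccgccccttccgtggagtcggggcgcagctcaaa
The Lss window, chr10:76531355-76531604, plus strand, holds 1 CCAAT.
Lss: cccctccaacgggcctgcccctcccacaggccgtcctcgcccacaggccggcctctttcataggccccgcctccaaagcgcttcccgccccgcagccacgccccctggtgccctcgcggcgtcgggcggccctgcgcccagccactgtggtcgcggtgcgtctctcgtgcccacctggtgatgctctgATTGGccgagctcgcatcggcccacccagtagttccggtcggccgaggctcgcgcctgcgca
The Fasn window, chr11:120824548-120824797, minus strand, holds 3 CCAAT.
Fasn: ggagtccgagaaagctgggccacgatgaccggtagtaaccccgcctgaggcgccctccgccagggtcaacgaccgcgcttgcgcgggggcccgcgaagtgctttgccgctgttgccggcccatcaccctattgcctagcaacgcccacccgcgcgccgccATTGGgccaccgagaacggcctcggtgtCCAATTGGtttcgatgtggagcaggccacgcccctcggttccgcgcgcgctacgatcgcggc

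Library totals ran from 17203672 to 24267494 counts in OVA T cells, 15494683 to 19296278 in B16-F10 T cells, 18754546 to 33263730 in OVA tumor cells and 18948947 to 23213586 in B16-F10 tumor cells. The lowest count of any of the 32 genes in any library was 62, 49, 119 and 278 in the same order of groups, so all 32 passed the filter on low counts. Libraries of a group differed little beyond counting noise, with a chi-square per gene of 1.51 to 1.77. Summed markers, given as the range over libraries in CPM (counts per 1000000 counts of the library), went partly against the labels. Endothelial markers summed to 10155 to 10220.1 CPM in OVA T cells, 10899 to 11012 in B16-F10 T cells, 4464 to 4529.5 in OVA tumor cells and 331 to 334 in B16-F10 tumor cells, where Emcn and Cldn5 were at 0. T cell markers summed to 1149 to 1157, 1256 to 1265, 265 to 267 and 4.28 to 5.12 CPM in that order, with Cd3e, Trac, Trbc2 and Cd2 at 0 in B16-F10 tumor cells. Melanoma cell markers summed to 107 to 113, 242 to 249, 9993 to 10009.8 and 23441 to 23528 CPM. All 12 T cell markers and all 12 melanoma markers had at least 5 CPM in the cells they define. All 12 endothelial markers also had at least 5 CPM in both T cell groups and in OVA tumor cells.

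The genes took 0.159% of all counts in OVA T cells, 0.161% in B16-F10 T cells, 0.371% in OVA tumor cells and 0.921% in B16-F10 tumor cells. Summed over the 22 sterol branch genes, the level was 954 ± 8.04 CPM, 926 ± 3.66 CPM, 1537 ± 11.0 CPM and 4135 ± 19.6 CPM in the same order (SD, n = 3 each). The 10 fatty acid branch genes summed to 639 ± 0.104, 679.8 ± 1.20, 2168 ± 1.56 and 5078 ± 2.61 CPM. The sterol sum was 1.49 ± 0.0127 times the fatty acid sum in OVA T cells and 1.36 ± 0.00694 times in B16-F10 T cells. It was 0.709 ± 0.00455 times in OVA tumor cells and 0.814 ± 0.00421 times in B16-F10 tumor cells. Libraries of the 4 groups did not overlap in this ratio. The libraries of OVA tumor cells lay between B16-F10 tumor cells and both T cell groups for 28 of the 32 genes. The exceptions were Idi1, Hsd17b7, Srebf2 and Stard4. The share of all genes that lay between in this way was not counted.

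**Figure D1:**
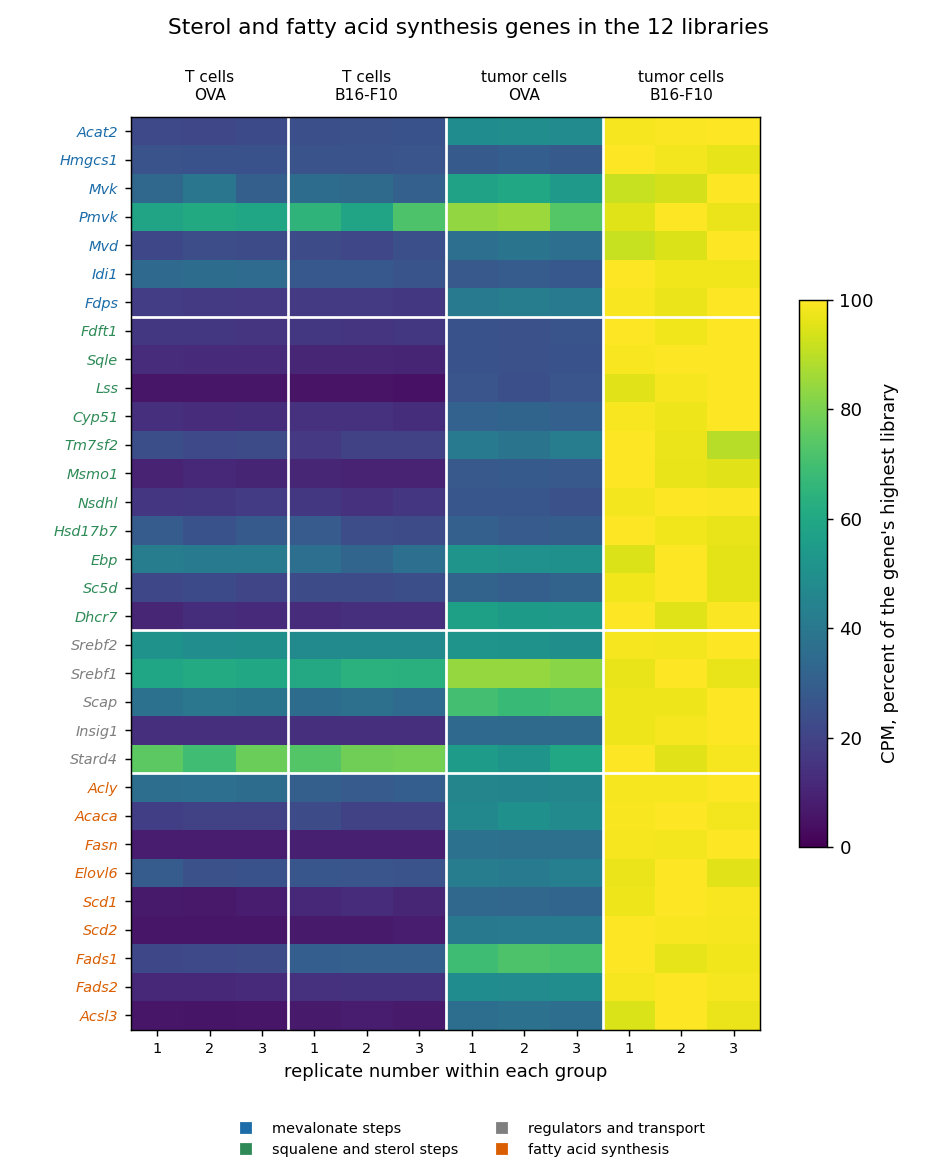
Level of each of the 32 genes (down the page, coloured by role) in each of the 12 libraries (across), as CPM in percent of the gene's highest library. The 3 libraries of B16-F10 tumor cells hold the highest values throughout, and OVA tumor cells are intermediate for 28 genes.

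The first comparison asked how the ovalbumin line differed from its parent line among sorted tumor cells. The lines differ in the ovalbumin vector and in whether OT-1 T cells recognise the tumor, and these cannot be told apart. An OVA effect below means only the difference between the labels. In OVA tumor cells, 31 of the 32 genes were lower than in B16-F10 tumor cells and 0 were higher, by edgeR's quasi-likelihood test with Benjamini-Hochberg adjustment over 17418 genes and a threshold of 0.05. Over all genes tested, 37.4% were lower and 42% were higher. At an unadjusted p under the same threshold 0 of the 32 were higher as well, and DESeq2 called 30 lower and 0 higher. Past a 2-fold difference, tested with glmTreat, 17 genes were lower, against 4.58% of all genes. The median log2 fold change was -1.10 over the 32 genes and 0.042 over all genes tested. By plain CPM, the libraries of OVA tumor cells lay below those of B16-F10 tumor cells for all 32, a count that was not made over all genes. With library totals in place of TMM factors, 32 were lower, 21 of them past 2-fold, against 45.7% and 6.87% of all genes.

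Dct, a pigment enzyme gene of the melanocyte lineage, was itself at 2635, 2636 and 2634 CPM in OVA tumor cells and 6712, 6684 and 6771 CPM in B16-F10 tumor cells. Macrophage and monocyte markers summed to 2803 to 2824 CPM in OVA tumor cells, against 15.9 to 17.1 CPM in B16-F10 tumor cells, and fibroblast markers to 2083 to 2098 CPM against 81.5 to 88.0 CPM. The part of these other cells in the lower levels was not tested. In bulk libraries, fewer cells of a type and less RNA per cell cannot be told apart.

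**Figure D2:**
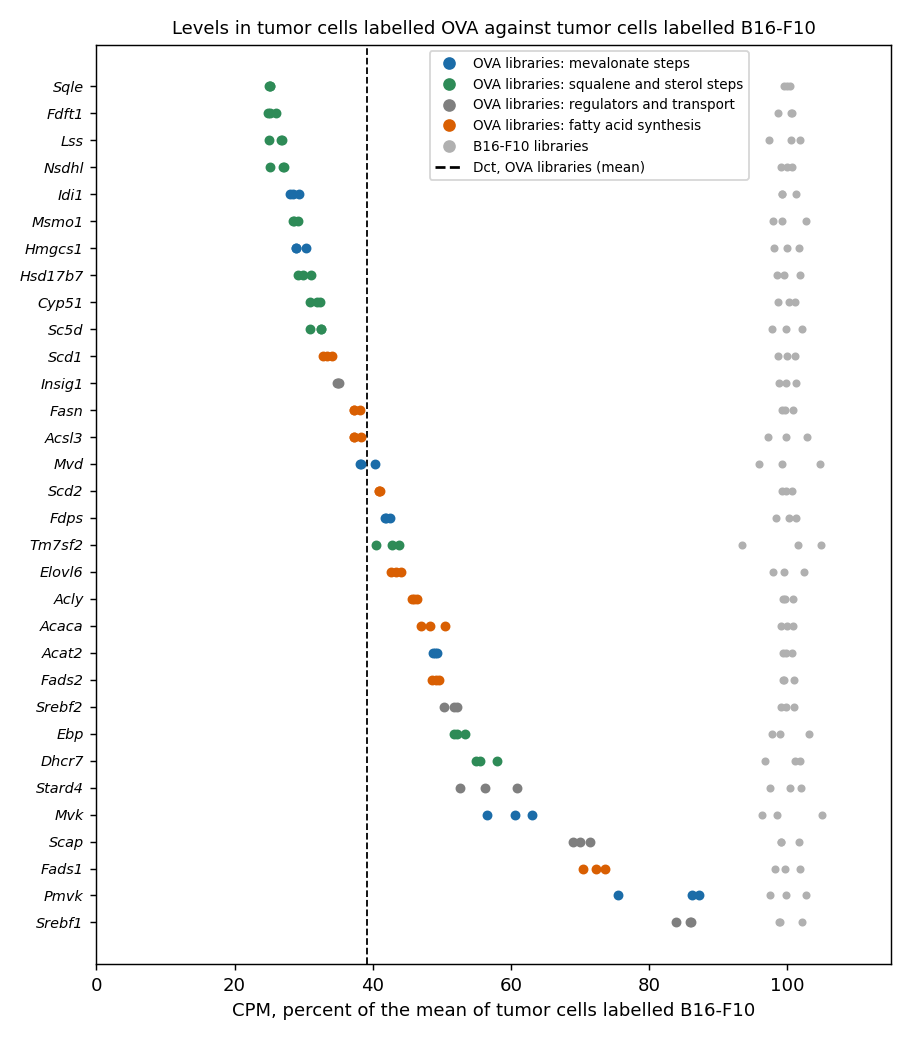
CPM of each gene in each library of OVA tumor cells (coloured points by role) and B16-F10 tumor cells (grey points), as percent of the mean of B16-F10 tumor cells, with the genes ordered down the page. The dashed line is the mean of Dct in OVA tumor cells, at 39.2%, and 15 genes have means to its left.

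The mevalonate steps were lower in OVA tumor cells for 6 of 7 genes, 4 of them past 2-fold, against 37.4% and 4.58% of all genes tested. Their median log2 fold change was -1.08. Idi1, isopentenyl diphosphate isomerase, had 53.8, 55.5 and 53.0 CPM in OVA tumor cells, against 191, 187 and 187 CPM in B16-F10 tumor cells (log2 fold change -1.64, SE 0.0250, adjusted p = 1.03e-24). Hmgcs1, which makes HMG-CoA, had 110.5, 116 and 111 CPM in OVA tumor cells, against 390.0, 383 and 376 CPM in B16-F10 tumor cells (log2 fold change -1.61, SE 0.0211, adjusted p = 5.59e-26). These are the steepest differences of the group, and the libraries of the 2 tumor lines lay far apart in each. Fdps, farnesyl diphosphate synthase, had 101, 103 and 101 CPM in OVA tumor cells, against 242, 238 and 245 CPM in B16-F10 tumor cells (log2 fold change -1.08, SE 0.0202, adjusted p = 5.37e-23). Pmvk, phosphomevalonate kinase, had 18.4, 18.6 and 16.1 CPM in OVA tumor cells, against 20.8, 21.9 and 21.3 CPM in B16-F10 tumor cells, and was the only gene of the 32 not called (log2 fold change -0.10, SE 0.0615, adjusted p = 0.135). Its libraries did not overlap by CPM, and with library totals it was called lower at -0.27 (adjusted p = 0.000358). Mvd, mevalonate diphosphate decarboxylase, stood at 38.9% of its level in B16-F10 tumor cells, Acat2, a cytosolic thiolase, at 49.0% and Mvk, mevalonate kinase, at 60.1%.

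The squalene and sterol steps had the lowest median of the role groups, -1.56. All 11 genes were called lower, 8 past 2-fold, against 37.4% and 4.58% of all genes tested. Sqle, squalene epoxidase, had 73.7, 73.2 and 73.5 CPM in OVA tumor cells, against 291, 293 and 294 CPM in B16-F10 tumor cells (log2 fold change -1.82, SE 0.0201, adjusted p = 2.1e-27), the lowest log2 fold change of the 32. Lss, lanosterol synthase, had 45.4, 42.4 and 45.5 CPM in OVA tumor cells, against 165, 171 and 173 CPM in B16-F10 tumor cells (log2 fold change -1.76, SE 0.0295, adjusted p = 6.5e-24). Fdft1, squalene synthase, which commits the pathway to sterols, stood at 25.4% of the level in B16-F10 tumor cells. The 3 genes catalyse successive steps, and Sqle and Lss kept 25.1% and 26.2% of that level. Cyp51, lanosterol demethylase, had 158, 160.2 and 153 CPM in OVA tumor cells, against 495, 487 and 499.7 CPM in B16-F10 tumor cells (log2 fold change -1.49, SE 0.0183, adjusted p = 1.71e-26). Later demethylation steps were similar in size, with Msmo1, a methylsterol oxidase, at -1.63, Nsdhl, a sterol dehydrogenase, at -1.75 and Hsd17b7, a keto reductase, at -1.56 on the log2 scale. The smallest changes were those of Ebp, a sterol isomerase, at -0.76, and Dhcr7, the final reductase, which had 67.4, 64.5 and 64.0 CPM in OVA tumor cells, against 118, 113 and 118 CPM in B16-F10 tumor cells (log2 fold change -0.66, SE 0.0294, adjusted p = 1.38e-15). Tm7sf2, a sterol reductase, fell by 1.07 and Sc5d, a sterol desaturase, by 1.47 on the log2 scale.

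Regulators and transport genes were lower in 5 of 5, 1 of them past 2-fold, against 37.4% and 4.58% of all genes tested. Their median was -0.65. Insig1, the SREBP-regulated brake on SREBP processing, had 218, 220.4 and 219 CPM in OVA tumor cells, against 619, 626 and 635 CPM in B16-F10 tumor cells (log2 fold change -1.35, SE 0.0159, adjusted p = 7.93e-27). Srebf2 had 219, 217 and 211 CPM in OVA tumor cells, against 418, 415 and 423 CPM in B16-F10 tumor cells (log2 fold change -0.79, SE 0.0173, adjusted p = 1.21e-21). Both genes were apart between the tumor lines. Scap had 101, 97.3 and 98.6 CPM in OVA tumor cells, against 139.8, 139.7 and 143 CPM in B16-F10 tumor cells (log2 fold change -0.34, SE 0.0233, adjusted p = 5.14e-12), and Stard4, a carrier of cholesterol between membranes, had 49.0, 45.9 and 53.0 CPM in OVA tumor cells, against 88.9, 85.0 and 87.6 CPM in B16-F10 tumor cells (log2 fold change -0.65, SE 0.0391, adjusted p = 4.35e-13). Srebf1 had 90.7, 90.9 and 88.5 CPM in OVA tumor cells, against 104, 108 and 104 CPM in B16-F10 tumor cells, and its log2 fold change was -0.061 (SE 0.0262, adjusted p = 0.0365). The Srebf1 call was lost without OVA tumor cells replicate 1, 2 or 3 (adjusted p = 0.0617, 0.0705 and 0.218) or B16-F10 tumor cells replicate 2 (0.194), with median-ratio factors (0.346), a filter at 1 CPM (0.129), DESeq2 (0.304) and 1 fit over all 12 libraries (0.0698).

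Fatty acid synthesis genes were lower in 9 of 9, 4 of them past 2-fold, against 37.4% and 4.58% of all genes tested. Their median was -1.04. Fasn, fatty acid synthase, had 515, 504 and 504 CPM in OVA tumor cells, against 1348, 1341 and 1364 CPM in B16-F10 tumor cells (log2 fold change -1.24, SE 0.0141, adjusted p = 3.71e-27). Scd2, a stearoyl-CoA desaturase, had 797, 799 and 800.5 CPM in OVA tumor cells, against 1966, 1949 and 1938 CPM in B16-F10 tumor cells (log2 fold change -1.12, SE 0.0130, adjusted p = 5.59e-27). Its relative Scd1 had 68.1, 66.7 and 65.5 CPM in OVA tumor cells, against 197, 202 and 199.6 CPM in B16-F10 tumor cells (log2 fold change -1.41, SE 0.0236, adjusted p = 6.63e-24), the lowest of this group. The libraries of the tumor lines were apart in all 3 genes. Acly, ATP citrate lyase, had 257, 255 and 259 CPM in OVA tumor cells, against 555, 556 and 564 CPM in B16-F10 tumor cells. Acaca, acetyl-CoA carboxylase, had 72.4, 77.8 and 74.5 CPM in OVA tumor cells, against 154, 155 and 153 CPM in B16-F10 tumor cells. They fell by 0.95 and 0.88 on the log2 scale (adjusted p = 4.21e-24 and 5.37e-19). Elovl6, an elongase of saturated chains, had 31.2, 30.7 and 31.7 CPM in OVA tumor cells, against 71.7, 73.7 and 70.5 CPM in B16-F10 tumor cells (log2 fold change -1.04, SE 0.0375, adjusted p = 2.12e-17). Acsl3, which activates long-chain fatty acids, had 106, 109 and 106 CPM in OVA tumor cells, against 277, 293 and 284 CPM in B16-F10 tumor cells (log2 fold change -1.25, SE 0.0230, adjusted p = 4.06e-23). The desaturases of polyunsaturated chains were the least lowered. Fads2 had 118, 116 and 119 CPM in OVA tumor cells, against 238, 242 and 238 CPM in B16-F10 tumor cells (log2 fold change -0.86, SE 0.0197, adjusted p = 3.14e-21), and Fads1 had 114, 119 and 117 CPM in OVA tumor cells, against 165, 159 and 162 CPM in B16-F10 tumor cells (log2 fold change -0.31, SE 0.0228, adjusted p = 2.03e-11).

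**Figure D3:**
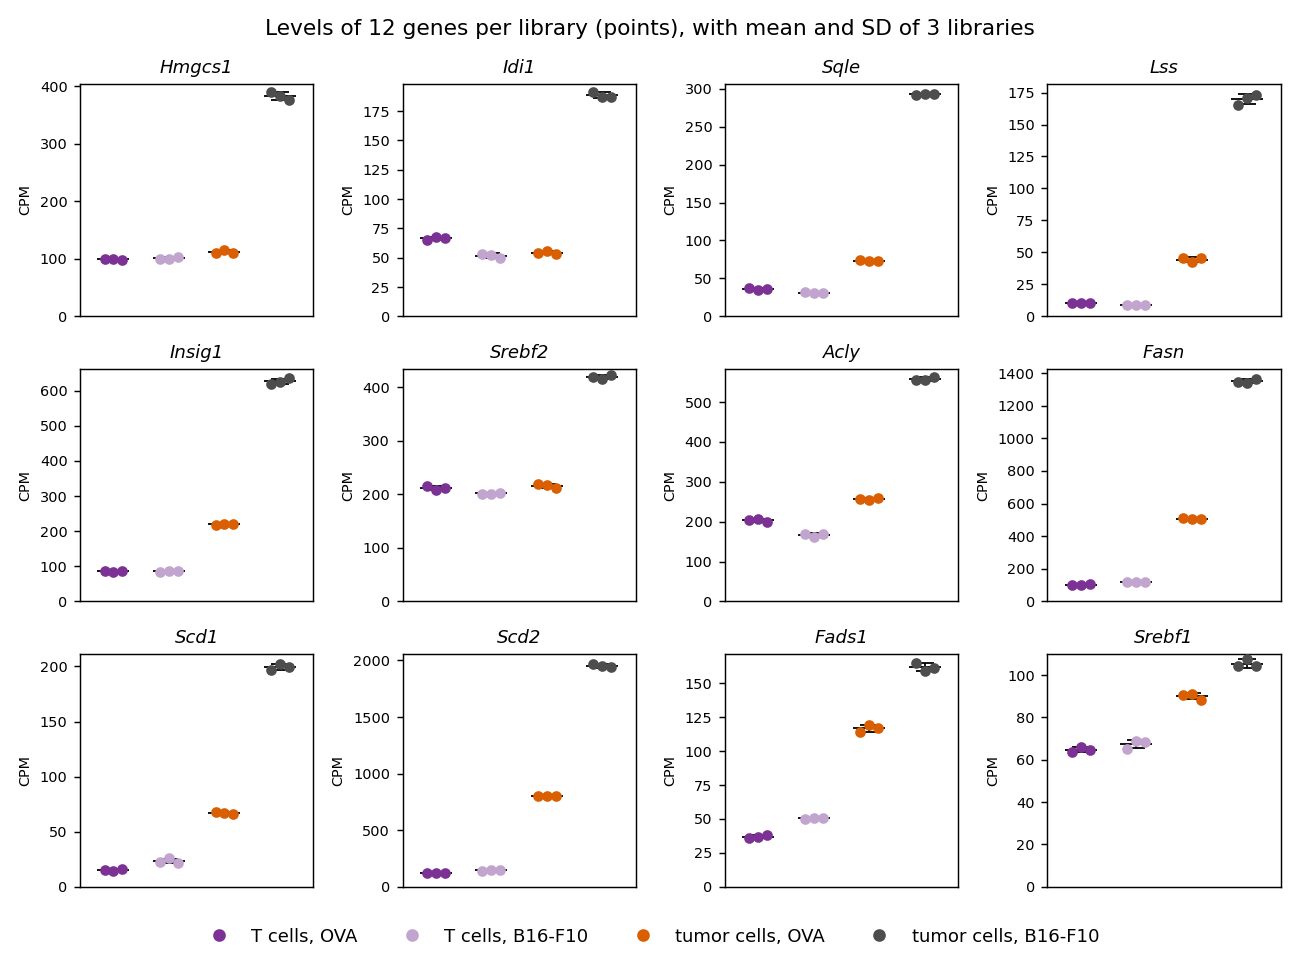
CPM of 12 of the genes in each library (points), with the mean and SD of 3 libraries, for OVA T cells, B16-F10 T cells, OVA tumor cells and B16-F10 tumor cells from left to right. Each axis starts at 0 and differs between genes. B16-F10 tumor cells are highest in every panel, and the OVA tumor cells lie within the range of the T cell libraries for Idi1 and overlap it for Srebf2.

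Scaling to Dct set each gene against the RNA of a pigment gene. Dct in OVA tumor cells stood at 39.2% of its level in B16-F10 tumor cells by CPM, and the 32 genes kept 25.1% to 85.3%, with a median of 41.5%. The median kept was 37.0% in the sterol branch and 44.7% in the fatty acid branch, and 30.1% among the squalene and sterol steps. Per Dct count, 14 of the 32 genes were lower in OVA tumor cells and 16 higher, against 2.78% lower and 90.7% higher over all genes tested. In the sterol branch 11 were lower and 9 higher, and in the fatty acid branch 3 were lower and 7 higher. The median log2 fold change per Dct count was 0.082 over the 32 genes and 1.22 over all genes tested. These tests take the Dct count of each library as exact.

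Sqle stood at 28.0, 27.8 and 27.9 counts per 1000 Dct counts in OVA tumor cells, against 43.4, 43.8 and 43.4 in B16-F10 tumor cells (log2 fold change -0.64, adjusted p = 2.98e-18). Lss stood at 17.2, 16.1 and 17.3 counts per 1000 Dct counts in OVA tumor cells, against 24.6, 25.6 and 25.6 in B16-F10 tumor cells (log2 fold change -0.58, adjusted p = 3.61e-14). Both were lower per Dct count without overlap. Fasn stood at 195, 191 and 191 counts per 1000 Dct counts in OVA tumor cells, against 201, 201 and 201 in B16-F10 tumor cells (log2 fold change -0.061, adjusted p = 0.000488), close to the change of Dct itself. Fads1 stood at 43.3, 45.3 and 44.5 counts per 1000 Dct counts in OVA tumor cells, against 24.6, 23.9 and 23.9 in B16-F10 tumor cells (log2 fold change 0.88, adjusted p = 6.27e-20), and Srebf1 at 34.4, 34.5 and 33.6 counts per 1000 Dct counts in OVA tumor cells, against 15.5, 16.1 and 15.4 in B16-F10 tumor cells (log2 fold change 1.12, adjusted p = 7.73e-21). Both were higher per Dct count, as were 90.7% of the genes tested.

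Scaling to Pmel or Mitf gave other splits. The median ratio of 12 melanoma markers, among them Dct, Pmel and Mitf, gave the same split as Dct. Dct (log2 fold change -1.18) lay at the median of these markers (-1.18), so the marker ratio nearly repeats the Dct scaling and is no separate check. Per Pmel count 12 of the 32 were lower and 20 higher, against 2.16% and 92.4% of all genes tested. Per Mitf count 28 were lower and 3 higher, against 18.4% and 61.1%. With the marker ratio 14 were lower and 16 higher, against 2.78% and 90.7%. The 12 genes lower under all 4 scalings are those lower per Pmel count, namely Hmgcs1, Idi1, Fdft1, Sqle, Lss, Cyp51, Msmo1, Nsdhl, Hsd17b7, Sc5d, Insig1 and Scd1. They comprise 8 of the 11 squalene and sterol steps, 11 of the 22 sterol branch genes and 1 of the 10 fatty acid branch genes, against 2.16% of all genes tested. Pmvk, Srebf1 and Fads1 were higher under all 4, as were 61.1% of all genes, and these are the genes higher per Mitf count. The median over all genes moved to 1.22 with Dct, 1.35 with Pmel, 0.42 with Mitf and 1.22 with the marker ratio, on the log2 scale. With TMM factors, the log2 fold changes of the 12 markers ran from -2.09 for Slc24a5 to 0.66 for Oca2, with Gpr143 at -1.79. That of Slc24a5 was below those of all 32 genes, of which Sqle was lowest at -1.82. Scaling to these other markers singly was not run, so the lists of genes lower or higher hold for the 4 scalings used only.

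The other genes of the pathway were read from lists of supply and removal genes. Of 16 other sterol synthesis and uptake genes, 9 were lower and 6 higher in OVA tumor cells, shares of 56.2% and 37.5% against 37.4% and 42% of all genes tested. Insig2, a relative of Insig1, averaged 48.4 ± 1.24 CPM in OVA tumor cells and 133 ± 1.54 CPM in B16-F10 tumor cells (SD, n = 3 each; log2 fold change -1.30, SE 0.0286, adjusted p = 1.38e-21). Its fall was close in size to that of Insig1.

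Of 15 sterol efflux, storage and LXR genes, 12 were higher and 2 lower in OVA tumor cells, shares of 80% and 13.3% against 42% and 37.4% of all genes tested, with a median log2 fold change of 0.99. Ch25h, which makes an oxysterol, averaged 12.8 ± 1.16 CPM in OVA tumor cells and had 0 counts in B16-F10 tumor cells, so it was at least 266-fold higher, taking 3 counts over the whole group as the floor. Abcg1, a sterol exporter, averaged 61.2 ± 1.57 CPM in OVA tumor cells and 0.111 ± 0.0278 CPM in B16-F10 tumor cells (log2 fold change 9.21, SE 0.116, adjusted p = 2.6e-26). Arl4c, an LXR target in cultured cells, averaged 75.8 ± 1.31 and 0.374 ± 0.0571 CPM in the same order (log2 fold change 7.79, SE 0.0890, adjusted p = 4.04e-27). All 3 were also present in both T cell groups, Abcg1 at 117 ± 2.29 CPM in OVA T cells and 91.3 ± 0.923 CPM in B16-F10 T cells. Macrophages and endothelial cells, whose markers were higher in OVA tumor cells, are known to express such genes, and their part in the result was not tested.

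Of 24 other fatty acid and glycerolipid genes tested, out of 29, 14 were lower and 10 higher in OVA tumor cells, shares of 58.3% and 41.7% against 37.4% and 42% of all genes tested. Fads3, a relative of Fads1 and Fads2, averaged 29.6 ± 1.73 CPM in OVA tumor cells and 0.787 ± 0.0334 CPM in B16-F10 tumor cells (log2 fold change 5.38, SE 0.110, adjusted p = 3.26e-22). Dgat2, which makes triglycerides, averaged 22.0 ± 0.427 and 3.66 ± 0.215 CPM (log2 fold change 2.75, SE 0.0796, adjusted p = 2.81e-19), and Acacb, the second acetyl-CoA carboxylase, 8.36 ± 0.665 and 25.5 ± 1.19 CPM (log2 fold change -1.44, SE 0.0688, adjusted p = 4.87e-15). In this list the calls went both ways.

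**Figure D4:**
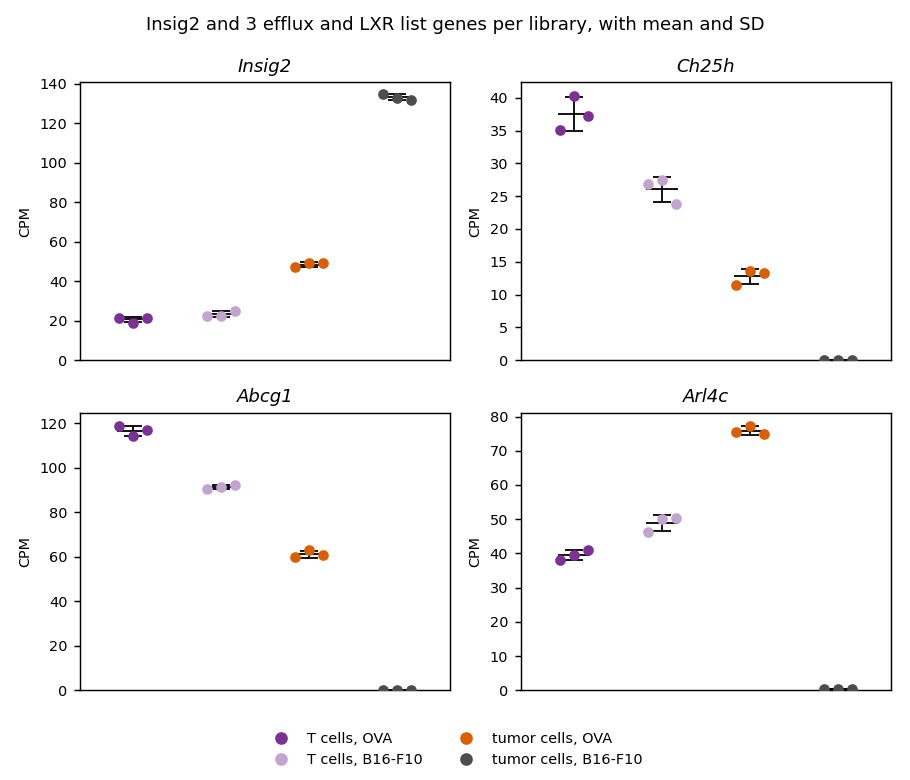
CPM in each library, with mean and SD of 3 libraries, of Insig2 and of the efflux and LXR list genes Ch25h, Abcg1 and Arl4c. The groups run from OVA T cells at the left to B16-F10 tumor cells at the right, where Insig2 is highest and the other 3 genes are at or near 0.

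The next comparison asked whether the CD8 bead fraction of ovalbumin tumors, here called OVA T cells, differed from that of parent tumors. These libraries are not T cells alone, and their endothelial markers summed to more CPM than their T cell markers, as given above. In OVA T cells, 8 of the 32 genes were higher and 6 lower than in B16-F10 T cells, against 23.7% higher and 22.4% lower over 16536 genes tested, so the shares of 25% and 18.8% lay near the background. The median log2 fold change was 0.043 over the 32 genes and -0.0074 over all genes. Sterol branch genes were higher in 7 of 22 (31.8%) and lower in 0, with 1 lower at an unadjusted p under 0.05 and 0 lower by DESeq2. With library totals, Acat2 (log2 fold change -0.17, adjusted p = 0.00872) and Cyp51 (-0.089, adjusted p = 0.0492) were called lower and the call of Tm7sf2 was lost (adjusted p = 0.0936). Fatty acid branch genes were higher in 1 of 10 (10%) and lower in 6 (60%). By CPM, OVA T cells lay wholly above for 8 of the 32 genes, wholly below for 8 and overlapped for 16. How many of all genes lay apart in this way was not counted, so these numbers have no background.

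Among the mevalonate steps 1 of 7 rose (14.3%), against 23.7% of all genes tested. Idi1 had 65.3, 67.4 and 66.6 CPM in OVA T cells, against 53.0, 52.6 and 49.4 CPM in B16-F10 T cells (log2 fold change 0.41, SE 0.0372, adjusted p = 4.05e-10). Its near copy Idi2 averaged 5.73 CPM in OVA T cells and 1.65 CPM in B16-F10 T cells, and how reads shared by both were counted is not given in the sources used here. Hmgcs1 had 100.4, 99.0 and 98.7 CPM in OVA T cells, against 99.2, 99.7 and 103 CPM in B16-F10 T cells (adjusted p = 0.267), Fdps had 44.5, 41.3 and 40.8 CPM in OVA T cells, against 41.7, 41.6 and 40.0 CPM in B16-F10 T cells (adjusted p = 0.0908), and both overlapped between the groups. Pmvk had 12.8, 13.3 and 12.9 CPM in OVA T cells, against 14.2, 12.8 and 15.7 CPM in B16-F10 T cells, and it overlapped as well (adjusted p = 0.489). Acat2, lowest of the group, had 25.1, 24.5 and 25.7 CPM in OVA T cells, against 27.9, 28.4 and 28.6 CPM in B16-F10 T cells (log2 fold change -0.11, SE 0.0521, adjusted p = 0.0778), and was called lower with library totals (adjusted p = 0.00872).

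Squalene and sterol steps rose in 4 of 11 (36.4%), against 23.7% of all genes tested. Sqle had 37.4, 34.4 and 35.9 CPM in OVA T cells, against 32.1, 31.1 and 30.7 CPM in B16-F10 T cells (log2 fold change 0.26, SE 0.0494, adjusted p = 9.28e-05). Lss had 10.5, 10.2 and 10.2 CPM in OVA T cells, against 9.12, 8.93 and 8.65 CPM in B16-F10 T cells (log2 fold change 0.27, SE 0.0865, adjusted p = 0.0125), a call that DESeq2 did not make (adjusted p = 0.0739). Ebp rose by 0.28 on the log2 scale (adjusted p = 0.000186). Tm7sf2 had 3.96, 3.60 and 3.73 CPM in OVA T cells, against 2.75, 3.22 and 3.16 CPM in B16-F10 T cells (log2 fold change 0.37, SE 0.153, adjusted p = 0.049). The Tm7sf2 call was lost without any single library of either T cell group (adjusted p between 0.0556 and 0.178), with library totals (0.0936), without the filter (0.118) and with DESeq2 (0.188). Cyp51 had 67.7, 63.1 and 64.5 CPM in OVA T cells, against 70.9, 71.1 and 65.9 CPM in B16-F10 T cells (adjusted p = 0.502), and Dhcr7, lowest of the group, had 12.6, 15.4 and 14.1 CPM in OVA T cells, against 15.2, 16.1 and 15.9 CPM in B16-F10 T cells (adjusted p = 0.204). Neither passed the test with TMM factors, and their libraries overlapped.

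Of the regulators and transport genes 2 of 5 rose (40%), by small amounts, against 23.7% of all genes tested. Srebf2 had 216, 208 and 211 CPM in OVA T cells, against 201, 201 and 202 CPM in B16-F10 T cells (log2 fold change 0.13, SE 0.0204, adjusted p = 7.33e-06). Scap had 53.9, 57.1 and 55.0 CPM in OVA T cells, against 50.7, 52.8 and 49.9 CPM in B16-F10 T cells (log2 fold change 0.17, SE 0.0392, adjusted p = 0.000955). Both were apart between the groups, by less than the differences between tumor lines. Insig1 had 85.7, 84.4 and 85.7 CPM in OVA T cells, against 85.1, 86.8 and 85.8 CPM in B16-F10 T cells (adjusted p = 0.188), Srebf1 had 63.5, 65.9 and 64.8 CPM in OVA T cells, against 65.2, 69.1 and 68.3 CPM in B16-F10 T cells (adjusted p = 0.919), and Stard4 had 66.5, 61.6 and 69.0 CPM in OVA T cells, against 65.0, 69.8 and 70.3 CPM in B16-F10 T cells (adjusted p = 0.876). These 3 overlapped.

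Fatty acid synthesis genes fell in 6 of 9 (66.7%) and rose in 1 (11.1%), against 22.4% and 23.7% of all genes tested. Scd1 had 14.8, 14.1 and 15.6 CPM in OVA T cells, against 22.6, 25.6 and 21.4 CPM in B16-F10 T cells (log2 fold change -0.58, SE 0.0691, adjusted p = 6.77e-08). Fads1 had 35.7, 36.7 and 37.7 CPM in OVA T cells, against 49.7, 50.8 and 50.4 CPM in B16-F10 T cells (log2 fold change -0.40, SE 0.0424, adjusted p = 1.04e-08). These are the largest falls among the 32 genes. Fads2 had 27.6, 26.9 and 28.7 CPM in OVA T cells, against 34.2, 35.4 and 35.4 CPM in B16-F10 T cells (log2 fold change -0.28, SE 0.0496, adjusted p = 4.26e-05). Acsl3 had 17.8, 17.0 and 17.7 CPM in OVA T cells, against 20.9, 22.7 and 21.3 CPM in B16-F10 T cells (log2 fold change -0.25, SE 0.0603, adjusted p = 0.00131). Both were apart between the groups. Scd2 had 122, 121 and 121 CPM in OVA T cells, against 141, 145 and 147 CPM in B16-F10 T cells (log2 fold change -0.20, SE 0.0235, adjusted p = 9.02e-08), and Fasn had 103, 102 and 106 CPM in OVA T cells, against 121, 120.3 and 118 CPM in B16-F10 T cells (log2 fold change -0.15, SE 0.0259, adjusted p = 2.32e-05). Acly went the other way, with 205, 206 and 199 CPM in OVA T cells, against 169.5, 162 and 168 CPM in B16-F10 T cells (log2 fold change 0.34, SE 0.0229, adjusted p = 1.02e-12). Acaca had 28.6, 30.6 and 29.9 CPM in OVA T cells, against 35.6, 31.0 and 29.8 CPM in B16-F10 T cells (adjusted p = 0.377), and Elovl6 had 21.3, 18.4 and 18.5 CPM in OVA T cells, against 19.7, 19.5 and 18.9 CPM in B16-F10 T cells (adjusted p = 0.447), both with overlap.

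Melanoma RNA was present in the T cell libraries and differed between them. Dct had 35.3, 41.4 and 38.5 CPM in OVA T cells and 85.5, 89.7 and 90.3 CPM in B16-F10 T cells. This is 1.46% of the level in OVA tumor cells and 1.32% of that in B16-F10 tumor cells. Endothelial markers were lower in OVA T cells, as given above, and fibroblast markers summed to 4882 to 4959 CPM against 5371 to 5468 CPM. Adipocyte markers summed to 41.9 to 44.0 CPM in OVA T cells, against 30.5 to 31.2 CPM in B16-F10 T cells, and macrophage markers to 841 to 846 CPM against 783 to 789.6 CPM. The part of melanoma RNA and of these other cells was not tested.

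**Figure D5:**
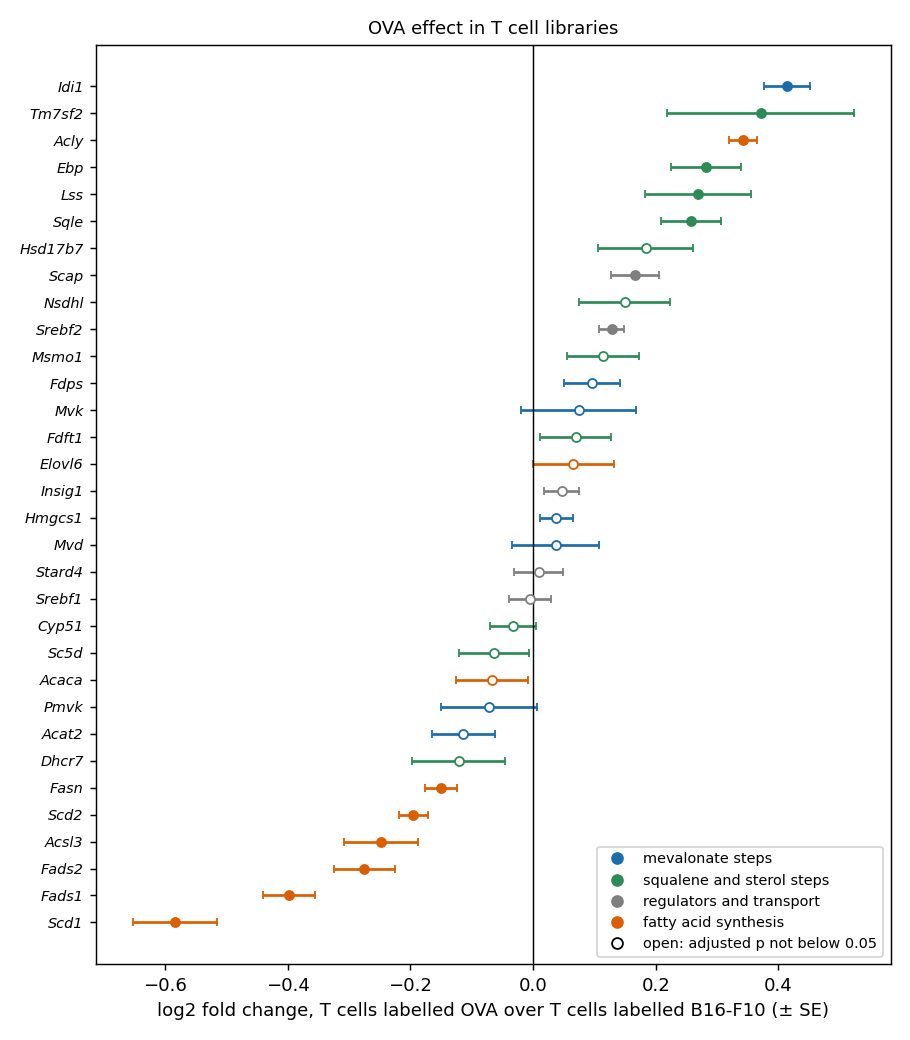
Log2 fold change of each of the 32 genes, OVA T cells over B16-F10 T cells, with its SE, ordered down the page and coloured by role. Filled points passed an adjusted p of 0.05, and the 6 filled points on the left are all fatty acid synthesis genes.

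The difference between the OVA effects (the effect in T cells minus the effect in tumor cells) was tested over all 12 libraries. It was higher for 29 of the 32 genes and lower for 0, against 27.7% higher and 41.3% lower over 18562 genes tested, and 1 was lower at an unadjusted p under 0.05 and 0 by DESeq2. Past 2-fold, 16 were higher, against 3.4% of all genes. The median was 1.10 over the 32 genes and -0.16 over all genes. By role, 11 of 11 squalene and sterol steps, 6 of 7 mevalonate steps, 4 of 5 regulators and transport genes and 8 of 9 fatty acid synthesis genes were called. Sqle differed by 2.08 (adjusted p = 1.77e-23), Idi1 by 2.05 (adjusted p = 4.07e-24) and Lss by 2.02 (adjusted p = 2.48e-17) on the log2 scale. Pmvk (0.027, adjusted p = 0.831), Srebf1 (0.053, adjusted p = 0.269) and Fads1 (-0.094, adjusted p = 0.0623) were not called. Fads1 was called lower without OVA tumor cells replicate 1 (adjusted p = 0.0263) or B16-F10 tumor cells replicate 1 (0.0472). Srebf1 was called higher with median-ratio factors (0.03), library totals (0.00086) and DESeq2 (0.0391).

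T cells were also set against the tumor cells of the same label, a comparison that shares its libraries with those above. The T cell libraries are a selected fraction and not T cells alone. In B16-F10 T cells, endothelial markers summed to 10899 to 11012 CPM and T cell markers to 1256 to 1265 CPM. The 2 fractions also differed in selection, by CD8 beads or by FACS. The part of other cells and of selection was not tested. Under the B16-F10 label all 32 genes were lower in T cells, 28 past 2-fold, against 40.4% and 17.6% over 18562 genes tested. The median log2 fold change was -1.91, against 0.12 over all genes. B16-F10 T cells held 5.24% to 78.4% of the level in B16-F10 tumor cells, with a median of 22.4%. Lss had 9.12, 8.93 and 8.65 CPM in B16-F10 T cells, against 165, 171 and 173 CPM in B16-F10 tumor cells (log2 fold change -4.00, SE 0.0459, adjusted p = 2.74e-30), the lowest of all. Scd2 (log2 fold change -3.51, SE 0.0160, adjusted p = 6.69e-39) and Acsl3 (log2 fold change -3.47, SE 0.0348, adjusted p = 1.37e-31) came next. Stard4 was nearest to equal, with 65.0, 69.8 and 70.3 CPM in B16-F10 T cells, against 88.9, 85.0 and 87.6 CPM in B16-F10 tumor cells (log2 fold change -0.11, SE 0.0430, adjusted p = 0.0257). That call was lost without B16-F10 T cells replicate 1 (adjusted p = 0.0724) or B16-F10 tumor cells replicate 1 (0.0651), with median-ratio factors (0.3) and with DESeq2 (0.129).

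Under the OVA label 27 of the 32 genes were lower in T cells, 13 of them past 2-fold, and 3 were higher, against 40.2% lower, 12.5% lower past 2-fold and 37.3% higher over all genes. The median was -0.70, against -0.027 over all genes. OVA T cells held 15.2% to 133% of the level in OVA tumor cells, with a median of 56.3%, which was 60.7% in the sterol branch and 27.5% in the fatty acid branch. Idi1 had 65.3, 67.4 and 66.6 CPM in OVA T cells, against 53.8, 55.5 and 53.0 CPM in OVA tumor cells (log2 fold change 0.43, SE 0.0308, adjusted p = 1.84e-12), and Stard4 had 66.5, 61.6 and 69.0 CPM against 49.0, 45.9 and 53.0 CPM (log2 fold change 0.55, SE 0.0443, adjusted p = 2.17e-11). Both were higher in T cells without overlap. Srebf2 had 216, 208 and 211 CPM in OVA T cells, against 219, 217 and 211 CPM in OVA tumor cells, which overlapped (log2 fold change 0.11, SE 0.0188, adjusted p = 1.55e-05). Its direction turned with library totals (-0.026, adjusted p = 0.215), and its call was lost without the filter (adjusted p = 0.419). Hmgcs1 (-0.041, adjusted p = 0.141) and Hsd17b7 (0.030, adjusted p = 0.688) were not called. Hmgcs1 was called lower with library totals (-0.17, adjusted p = 8.78e-07) and without the filter (-0.11, adjusted p = 0.0024), and higher with median-ratio factors (0.067, adjusted p = 0.0169). All 10 fatty acid branch genes were lower in OVA T cells, 7 past 2-fold, led by Scd2 (log2 fold change -2.59, SE 0.0163, adjusted p = 3.46e-35).

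Exon overlaps were read from the GENCODE M21 annotation, whose build (GRCm38) is not that of the counts. Exons of Acsl3, Cyp51, Fdft1, Fdps, Srebf1 and Tm7sf2 overlap those of another protein-coding gene, over 1.93% to 26.7% of their exon bases. Overlaps with genes of other types cover 13.2% of the exon bases of Scap, 12.1% of Hmgcs1, 9.22% of Idi1 and 3.53% of Lss. They cover less of Elovl6, Scd2 and Srebf1. Scd1 and Scd2, Acat2 and Acat3, and Idi1 and Idi2 are near copies. Whether strand was used and how multi-mapping reads were handled is not given in the sources used here, so reads of these genes may be shared with their neighbours or copies. Acat3 averaged at most 1.56 CPM in any group.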

How the data were processed

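Bulk messenger RNA was measured in 12 libraries, 3 per group. The authors deposited raw counts per Ensembl gene, with no normalization. Per the submitters' processing notes, HISAT2 2.0.5, featureCounts 1.6.0 and the build GRCm39 were used, and settings are not given in the sources used here. Of the count columns, all were used.

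The 32 genes and the lists beside them were chosen with earlier results of these data known. Levels are CPM by library total, as mean ± SD of 3 libraries, or counts per 1000 Dct counts. Tests used R 4.3.3 and edgeR 4.0.16 across all genes: filterByExpr by group, TMM scaling, the quasi-likelihood F test, Benjamini-Hochberg adjustment and a threshold of 0.05. Counts past 2-fold come from glmTreat. The fit of an OVA effect held the 6 libraries of 1 cell fraction, and that of the other comparisons all 12. Standard errors (SE) were derived from the F statistic. The scripts were tested on simulated data. Alternatives were median-ratio factors, library totals, pigment gene scalings, other filters, DESeq2 1.42.0, a replicate block, 1 fit over all libraries and leaving out each library.

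Values in every library are given for a set list of 21 genes and for the highest and lowest log2 fold change of each role in each OVA comparison. Of each other list, the 3 called genes with the largest change and at least 5 CPM in the higher group were named, except that some are not reported here.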

Additional observations from a re-analysis of the deposited data

Results flagged for a closer look

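The OVA effect differed between T cells and tumor cells for 29 of the 32 genes by a test of the difference itself (edgeR, over all 12 libraries), and for 16 of them past 2-fold. The differences below are the log2 effect in T cells minus that in tumor cells. Among the mevalonate steps they were 1.64 for Hmgcs1, 1.23 for Mvd, 2.05 for Idi1 and 1.17 for Fdps. Among the squalene and sterol steps they were 1.88 for Fdft1, 2.08 for Sqle, 2.02 for Lss, 1.45 for Cyp51, 1.44 for Tm7sf2, 1.74 for Msmo1, 1.90 for Nsdhl, 1.74 for Hsd17b7 and 1.40 for Sc5d. Insig1 differed by 1.39, and of the fatty acid synthesis genes Acly differed by 1.29 and Fasn by 1.09. With TMM factors, in each of the 16 the effect in tumor cells was a fall, and that in T cells was smaller in size. Per Dct count, the tumor effect was positive for Acly (0.23), Fdps (0.10) and Tm7sf2 (0.11) and negative for the others of the 16. The difference itself was not tested under a pigment gene scaling. The 29 genes were all called higher, against 27.7% higher and 41.3% lower over all genes tested. The 16 genes stand against a background of 3.4% of all genes tested.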

How the results depend on the processing

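Pigment gene scaling moved the comparison of tumor cells most. Per Dct count, 15797 of all genes and 16 of the 32 were higher in OVA tumor cells, and 485 and 14 lower. The log2 fold changes that turned positive were Acat2 0.32, Mvk 0.61, Pmvk 1.08, Fdps 0.10, Tm7sf2 0.11, Ebp 0.42, Dhcr7 0.52, Srebf2 0.39, Srebf1 1.12, Scap 0.84, Stard4 0.54, Acly 0.23, Acaca 0.30, Elovl6 0.14, Scd2 0.063, Fads1 0.88 and Fads2 0.33. Per Pmel count, 16100 genes and 20 of the 32 were higher, and 376 and 12 lower, and the fold changes that turned were Acat2 0.45, Mvk 0.74, Pmvk 1.21, Mvd 0.11, Fdps 0.23, Tm7sf2 0.24, Ebp 0.55, Dhcr7 0.65, Srebf2 0.52, Srebf1 1.25, Scap 0.97, Stard4 0.66, Acly 0.36, Acaca 0.43, Fasn 0.066, Elovl6 0.27, Scd2 0.19, Fads1 1.00, Fads2 0.45 and Acsl3 0.065. Per Mitf count, 10636 genes and 3 of the 32 were higher, and 3200 and 28 lower. Those that turned were Pmvk 0.28, Srebf1 0.32, Scap 0.040 and Fads1 0.073. With the median ratio of melanoma markers, 15802 genes and 16 of the 32 were higher, and 485 and 14 lower, and those that turned were Acat2 0.32, Mvk 0.62, Pmvk 1.08, Fdps 0.10, Tm7sf2 0.11, Ebp 0.42, Dhcr7 0.52, Srebf2 0.39, Srebf1 1.12, Scap 0.84, Stard4 0.54, Acly 0.23, Acaca 0.30, Elovl6 0.14, Scd2 0.063, Fads1 0.88 and Fads2 0.33. These scalings divide by a pigment level that was itself lower in OVA tumor cells. Under the OVA label, T cells against tumor cells turned for Hmgcs1 with median-ratio factors (0.067) and for Srebf2 with library totals (-0.026), and the cause was not tested.

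Leaving out each library in turn gave 30 to 31 of the 32 lower in OVA tumor cells, 7 to 9 higher and always 6 lower in OVA T cells, and always 29 higher and 0 to 1 lower for the difference of effects. For T cells against tumor cells it gave 31 to 32 lower under the B16-F10 label, and always 3 higher and 27 lower under the OVA label. Hsd17b7 in OVA T cells was called higher without B16-F10 T cells replicate 1 (adjusted p = 0.00341) or OVA T cells replicate 2 (0.019), Fdps without OVA T cells replicate 3 (0.0491), and Msmo1 without B16-F10 T cells replicate 1 (0.0371).

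Same-numbered libraries did not deviate together, since 0 of 18 correlations of their deviations were over 0.1 (range -0.0800 to 0.0577). With the replicate number as a block, 30 of the 32 were lower in OVA tumor cells, 8 were higher and 6 lower in OVA T cells, and 29 differed between the effects. Against tumor cells, T cells had 32 lower under the B16-F10 label, and 3 higher and 27 lower under the OVA label. The block ended the calls of Srebf1 in tumor cells (adjusted p = 0.0534) and Tm7sf2 in T cells (0.067), and added Hsd17b7 in T cells (0.0317).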

Other observations

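Of 15 other sterol synthesis and uptake genes tested in T cells, 4 were higher and 2 lower in OVA T cells, against 23.7% and 22.4% of all genes. Scarb1, a receptor for HDL, averaged 389.8 ± 5.73 CPM in OVA T cells and 489 ± 3.07 CPM in B16-F10 T cells (log2 fold change -0.27, SE 0.0161, adjusted p = 7.12e-14).

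Of 14 sterol efflux, storage and LXR genes tested in T cells, 6 were higher and 4 lower in OVA T cells, shares of 42.9% and 28.6% against the same 23.7% and 22.4%. Ch25h averaged 37.6 ± 2.63 CPM in OVA T cells and 26.0 ± 1.93 CPM in B16-F10 T cells (log2 fold change 0.57, SE 0.0587, adjusted p = 5.1e-09), and Abcg1 117 ± 2.29 and 91.3 ± 0.923 CPM (log2 fold change 0.41, SE 0.0267, adjusted p = 4.93e-13). Apoe, a lipid carrier that the melanoma cells also expressed at 518 ± 4.56 CPM under the B16-F10 label, averaged 46.9 ± 1.06 CPM in OVA T cells and 69.3 ± 2.47 CPM in B16-F10 T cells (log2 fold change -0.51, SE 0.0380, adjusted p = 1e-11). Of 24 other fatty acid and glycerolipid genes tested, 6 were higher and 5 lower, and these shares of 25% and 20.8% lay near the 23.7% and 22.4% of all genes. Gpam, which starts glycerolipid synthesis, and Mid1ip1, an activator of acetyl-CoA carboxylase, were lower (log2 fold change -0.31, SE 0.0975, adjusted p = 0.0104 and log2 fold change -0.24, SE 0.0465, adjusted p = 0.000137), and Acsl1 was higher (log2 fold change 0.24, SE 0.0782, adjusted p = 0.0122).

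Between B16-F10 T cells and B16-F10 tumor cells, 9 of 26 other fatty acid and glycerolipid genes tested were higher in T cells and 15 lower, against 45.5% and 40.4% of all genes. Fads3 averaged 74.3 ± 3.09 CPM in B16-F10 T cells and 0.787 ± 0.0334 CPM in B16-F10 tumor cells (log2 fold change 6.79, SE 0.0924, adjusted p = 1.2e-28), the largest change among called genes of this list with at least 5 CPM in the higher group. Elovl7, an elongase, averaged 1.09 ± 0.322 CPM in B16-F10 T cells and 40.1 ± 0.444 CPM in B16-F10 tumor cells (log2 fold change -4.95, SE 0.106, adjusted p = 3.39e-24). Me1, malic enzyme, a source of NADPH, averaged 13.0 ± 0.801 CPM in B16-F10 T cells and 152 ± 3.12 CPM in B16-F10 tumor cells (log2 fold change -3.31, SE 0.0448, adjusted p = 1.05e-28). Of 16 other sterol synthesis and uptake genes 5 were higher and 10 lower in B16-F10 T cells, and of 14 efflux, storage and LXR genes tested 11 were higher and 3 lower. Keratinocyte and sebocyte markers, whose cells are rich in lipid synthesis, summed to 1.10 to 1.65 CPM in OVA T cells, 3.61 to 4.12 in B16-F10 T cells, 13.0 to 15.1 in OVA tumor cells and 0.188 to 0.732 in B16-F10 tumor cells, with 6 of 8 markers at 0 in the last.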
